A study of Mus musculus with 2 samples.

Results

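The expression of 10 interferon effector genes, Isg15, Ifi27l2a, Ifit1, Ifit2, Ifit3, Ifitm1, Ifitm2, Ifitm3, Usp18 and Rsad2, was examined in cultured mouse neural retinal progenitor cells (mNRPCs) and in mouse retina. These 10 genes were taken, out of 31253 genes with a symbol in the expression table, as a list of interferon effectors that had been chosen from their levels in the same 2 libraries. Their values are therefore a description, and no test was made on them. The first library was made from mNRPCs at passage 24 and the second from retina tissue, and both came from C57BL/6 mice without any allele or agent named in the labels that would set them apart. By the study's methods, the progenitors had been derived from neural retina of adult mice and expanded on Matrigel in N2/B27 medium. The medium held basic fibroblast growth factor and CHIR99021, which blocks the kinase GSK3. They are thus a passaged culture and not cells taken directly from the tissue. The retina library holds all cell types of the tissue. The age of the mouse behind the retina library is not given in the sources used here. With 1 library per group, differences have no replicate check. In bulk RNA, fewer cells of a type and less RNA per cell cannot be told apart.

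Type I interferons bind a receptor of IFNAR1 and IFNAR2 at the cell surface. The kinases JAK1 and TYK2 then phosphorylate STAT proteins such as STAT2, which joins IRF9 in the complex ISGF3. This complex binds interferon-stimulated response elements in front of its target genes. The proteins made from these targets act at different steps of a viral infection. ISG15 is a ubiquitin-like protein that is attached to other proteins, and USP18 removes it and also dampens signalling at the receptor. IFIT proteins bind foreign RNA, IFITM proteins sit in membranes and hinder the entry of enveloped viruses, and RSAD2, also known as viperin, makes a nucleotide that stops viral RNA synthesis. In the nervous system such genes are low in the absence of infection and are induced in glia and neurons by interferon.

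Values were in FPKM, in which fragment numbers are scaled to transcript length and library size, so levels can be compared between genes per length. The depth estimated from the smallest values was 6.82e+06 fragments in mNRPCs and 5.32e+06 in the retina, and intervals given below are 95% Poisson intervals on estimated fragments that cover counting error only. The sum over all rows was 616860 FPKM in mNRPCs and 432256 FPKM in the retina. The labels were checked against marker genes. The 5 rod markers summed to 20721 FPKM in the retina and to 9.51 FPKM in mNRPCs. Of 7 retinal progenitor markers, Pax6 was at 123 FPKM, Sox2 at 231 FPKM, Six3 at 39.7 FPKM and Nes at 9.42 FPKM in mNRPCs, whereas Lhx2 was at 3.06 FPKM and Rax listed at 0 there, against 15.9 and 81.7 FPKM in the retina. A value listed at 0 can be a failed estimate, so the absence of Rax was not shown.

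The promoters of the members are shown first, since the response element of ISGF3 is known from the promoters of many interferon-induced genes. RefSeq windows of 300 bases (GRCm38.p6, 250 bases before to 50 after an annotated start) were available for 8 of the 10 members. They were searched on both strands for GAAANNGAAA, the core of the response element, which reads TTTCNNTTTC on the opposite strand. A match was found in 6 of the 8 members, in 1079 of all 27025 genes with a window (3.99%) and in 401 of the 10913 compared genes with a window (3.67%). A match is a stretch of letters and not a measured binding site. In the lines below matches are in capitals, and each sequence reads 5′ to 3′ on the strand of the gene.

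The promoters of Isg15 (chr4:156200819-156201068, minus strand) and Rsad2 (chr12:26456453-26456702, minus strand) are given as the 250 bases before the start, because Isg15 had the most matches of the members and Rsad2 a single one.
Isg15: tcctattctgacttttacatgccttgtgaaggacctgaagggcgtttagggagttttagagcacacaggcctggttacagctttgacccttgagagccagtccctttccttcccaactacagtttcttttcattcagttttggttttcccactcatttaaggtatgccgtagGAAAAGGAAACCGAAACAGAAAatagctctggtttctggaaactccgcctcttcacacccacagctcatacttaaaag
Rsad2: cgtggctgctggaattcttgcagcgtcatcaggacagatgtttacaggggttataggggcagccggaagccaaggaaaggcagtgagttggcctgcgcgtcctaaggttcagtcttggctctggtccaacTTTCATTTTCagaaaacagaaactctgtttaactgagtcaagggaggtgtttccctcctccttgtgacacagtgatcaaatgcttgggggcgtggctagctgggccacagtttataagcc

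The 3 matches of Isg15 overlapped each other within 22 bases and began 78, 72 and 66 bases before the start. The match of Rsad2 began 120 bases before the start and lay in the opposite orientation.

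The IFIT and IFITM genes with a match are shown by stretches of 30 bases around it. They come from Ifit1 (chr19:34640784-34640813, plus strand), Ifit3 (chr19:34583363-34583392 and chr19:34583397-34583426, plus strand), Ifitm2 (chr7:140955988-140956017, minus strand) and Ifitm3 (chr7:141010715-141010744, minus strand).
Ifit1: gTTTCACTTTCcagtctcagTTTCAGTTTC
Ifit3, first match: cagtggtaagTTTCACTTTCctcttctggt
Ifit3, second match: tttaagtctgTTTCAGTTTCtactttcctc
Ifitm2: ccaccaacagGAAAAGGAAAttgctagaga
Ifitm3: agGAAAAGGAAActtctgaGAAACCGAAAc

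Ifit1 and Ifit3 carried the same pair of letter strings, TTTCACTTTC and then TTTCAGTTTC, with first bases 19 apart in Ifit1 and 34 apart in Ifit3. The pair of Ifit3, and its spacing, was also found in the window of Ifit3b, the near-identical neighbour of Ifit3. In both genes the pair lies before the start used for the window but inside the annotated span of the gene. The pair before Ifit1 lies between the starts used for the windows of Ifit1 and of Ifit1bl2, a paralog transcribed away from it, and was counted in the windows of both genes. Ifitm2 and Ifitm3 shared the string GAAAAGGAAA, which is also the first of the Isg15 matches. The match of Ifitm2 lies before the start used for its window but inside the annotated span of the gene. In Ifitm3 the 2 matches began at bases 3 and 20 of the transcript, that is, in the first exon and not before it.

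No match was found in the windows of Ifit2 and Ifitm1. Part of each is printed for comparison: 106 bases for Ifit2 (chr19:34550444-34550549, plus strand), which end before the gene's annotated start, and 202 bases for Ifitm1 (chr7:140967826-140968027, plus strand), which lie in an intron of a longer Ifitm1 transcript and end before the first exon of the shorter ones.
Ifit2: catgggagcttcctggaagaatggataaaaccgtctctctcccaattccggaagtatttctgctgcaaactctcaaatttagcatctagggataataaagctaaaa
Ifitm1: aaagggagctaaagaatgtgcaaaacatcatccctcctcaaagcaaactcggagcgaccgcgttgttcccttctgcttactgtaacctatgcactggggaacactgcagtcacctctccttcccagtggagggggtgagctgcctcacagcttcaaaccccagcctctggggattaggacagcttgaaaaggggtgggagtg

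The absence of these letters in the windows says nothing of the factor itself.

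**Figure D1:**
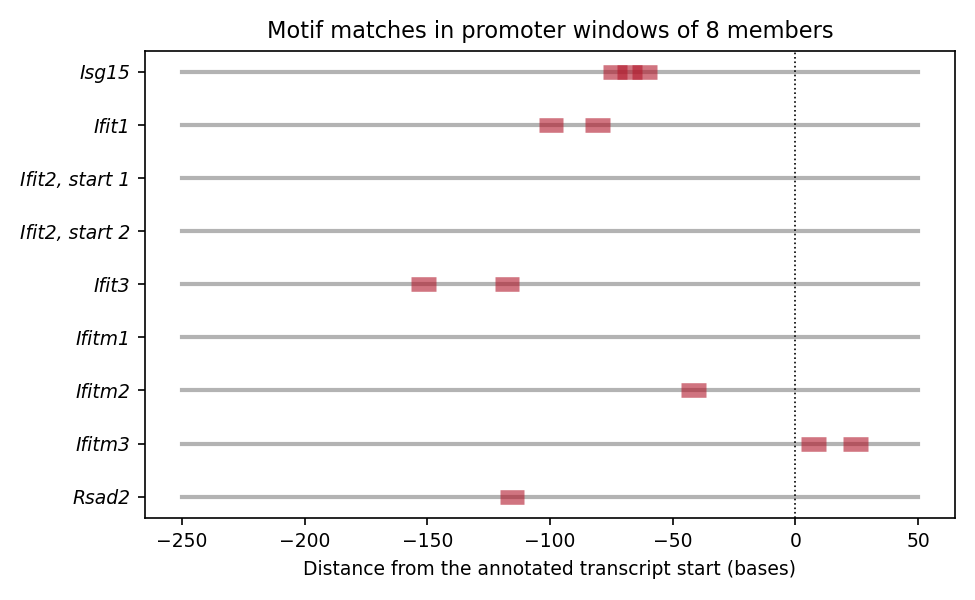
Positions of GAAANNGAAA matches on either strand in RefSeq promoter windows of 8 members. The horizontal axis is the distance from the annotated transcript start in bases, grey lines are the windows of 300 bases and red blocks are matches. Matches are found before the start used for the window in Isg15, Ifit1, Ifit3, Ifitm2 and Rsad2 and after it in Ifitm3. Those of Ifit3 and Ifitm2 lie inside the annotated span of the gene. The 2 windows of Ifit2 and the window of Ifitm1 hold none.

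Expression of the members was compared between the libraries as the log2 of (mNRPC FPKM + 1)/(retina FPKM + 1). A gene entered the comparison if either library had at least 1 FPKM, and a difference of at least 2-fold on this scale was counted. All 10 members were compared, 9 of them with at least 1 FPKM in mNRPCs and 8 in the retina. In the mNRPC library 9 members were at least 2-fold higher than in the retina and 1, Ifitm1, was at least 2-fold lower. Over all 13780 compared genes 24.5% were at least 2-fold higher and 30.0% at least 2-fold lower. The median log2 ratio was 6.16 over the members and -0.12 over all compared genes. Since the members were chosen on these values, the count is not read against the background. Together the members held 5335 FPKM in mNRPCs, or 0.865% of its total, and 49.2 FPKM in the retina, or 0.0114%.

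**Figure D2:**
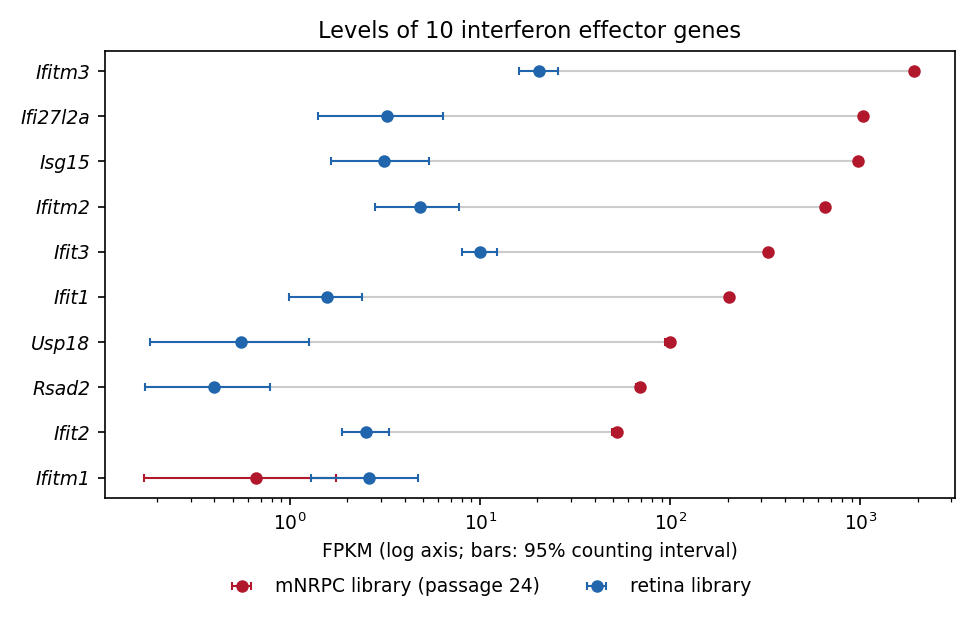
Level of each of the 10 members in mNRPCs (red) and the retina library (blue). The horizontal axis is FPKM on a log scale, and bars are 95% counting intervals on estimated fragments, with no replicate error. Levels in mNRPCs run from 52.2 to 1923 FPKM apart from Ifitm1 at 0.660 FPKM, and levels in the retina run from 0.400 to 20.4 FPKM.

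Isg15, which encodes the ubiquitin-like modifier, was at 974 FPKM in mNRPCs and 3.11 FPKM in the retina. The levels differed 313-fold (interval 181 to 596) and the log2 ratio was 7.89, the 7th highest of 13780 genes. In the retina library the value rests on about 12.5 fragments, against 5020 in mNRPCs. Isg15 lies at chr4:156199424-156200818 on the minus strand (GRCm38.p6) and overlaps the annotated non-coding gene Gm46878, so reads from the shared part could belong to either.

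Ifi27l2a encodes a small hydrophobic protein of the interferon alpha-inducible 27 family and stood next to Isg15 in both libraries. It was at 1037 FPKM in mNRPCs and 3.25 FPKM in the retina. The fold was 319 (interval 162 to 739) and the log2 ratio 7.93, the 6th highest of all compared genes. The gene (chr12:103433873-103443680, minus strand) overlaps Ifi27 on the opposite strand. Whether the counting used strand is not stated, so reads from the shared part could be given to either gene. Its relative Ifi27 was at 107 FPKM in mNRPCs and 8.05 FPKM in the retina, a log2 ratio of 3.57. Ifi27l2a thus held 90.4% of the FPKM of Ifi27, Ifi27l2a and Ifi27l2b in mNRPCs and 28.8% in the retina. The third gene of the group, Ifi27l2b, had 3.51 FPKM in mNRPCs, against a listed value of 0 in the retina.

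The IFIT genes encode proteins with tetratricopeptide repeats, of which IFIT1 binds RNA with an incomplete cap, and IFIT2 and IFIT3 form complexes with it. Ifit1 was at 203 FPKM in mNRPCs and 1.57 FPKM in the retina, a fold of 129 (interval 85.3 to 206) and a log2 ratio of 6.31. Ifit2 was at 52.2 FPKM in mNRPCs and 2.52 FPKM in the retina, a fold of 20.7 (interval 15.7 to 27.9) and a log2 ratio of 3.92. Ifit3 was at 327 FPKM in mNRPCs and 9.95 FPKM in the retina, a fold of 32.9 (interval 26.7 to 40.9) and a log2 ratio of 4.91. The fold intervals of Ifit2 and Ifit3 overlapped, and that of Ifit1 lay above both.

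The shares of the IFIT genes in their summed level were compared between the libraries. In the retina library Ifit3 made up 70.8% of the FPKM of the 3 genes, Ifit2 18.0% and Ifit1 11.2%. In the mNRPC library Ifit3 made up 56.2%, Ifit1 34.9% and Ifit2 8.97%. The level of Ifit1 was 3.89 times that of Ifit2 in mNRPCs and 0.624 times in the retina, where the counting intervals of both genes overlapped.

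Ifit2 (chr19:34550550-34576534), Ifit3 (chr19:34583119-34588982) and Ifit1 (chr19:34640889-34650009), all on the plus strand, lie with their paralogs in 1 cluster of 112432 bp. Ifit3 shares 51.2% of its stretches of 50 bases with Ifit3b, and so the division of reads between these genes is uncertain. Ifit3b was at 97.1 FPKM in mNRPCs and 3.80 FPKM in the retina, a log2 ratio of 4.35, and the level of Ifit3 was 3.37 times that of Ifit3b in mNRPCs and 2.62 times in the retina. Ifit1 shares 7.13% of its stretches with other genes of the table, most with Ifit1bl2, and overlaps Ifit1bl1 on the opposite strand. Ifit1bl2 was at 3.49 FPKM in mNRPCs and 0.474 FPKM in the retina. Ifit1bl1 was at 1.73 FPKM and 0.837 FPKM, a log2 ratio of 0.57 that did not reach the 2-fold limit. Ifit1 and Ifit1bl2, whose windows hold the same matches, stood at 203 and 3.49 FPKM in mNRPCs.

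The sum of Ifit3 hides a difference between transcript rows. The curated row was at 309 FPKM in mNRPCs and 4.91 FPKM in the retina, a log2 ratio of 5.71. The 3 predicted rows together made up the rest, and the highest of them in the retina was at 5.60 FPKM in mNRPCs and 3.16 FPKM in the retina, a log2 ratio of 0.66. The curated row held 94.4% of the gene's FPKM in mNRPCs and 49.4% in the retina. For Ifit2 the curated row held 93.8% and 78.7%. Fragments that fit several rows are divided by estimation, so shares of single rows are less certain than gene sums.

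The IFITM genes encode membrane proteins that block the fusion of enveloped viruses with the cell, and IFITM3 acts mainly in endosomes. Ifitm3 was the highest member in both libraries, at 1923 FPKM in mNRPCs and 20.4 FPKM in the retina. It differed 94.1-fold (interval 74.9 to 120), with a log2 ratio of 6.49, and ranked 36th by level among all genes of the mNRPC library. Ifitm2 was at 650 FPKM in mNRPCs and 4.82 FPKM in the retina, a fold of 135 (interval 83.8 to 232) and a log2 ratio of 6.80. The fold intervals of Ifitm2 and Ifitm3 overlapped.

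Ifitm1, whose protein is found mainly at the cell surface, went the other way. It was at 0.660 FPKM in mNRPCs and 2.61 FPKM in the retina, which is 3.96-fold lower in mNRPCs (interval 1.13 to 18.1) with a log2 ratio of -1.12. These values rest on about 3.74 fragments in mNRPCs and 10.7 in the retina, and the interval comes close to no difference. The 2 curated rows of Ifitm1 were at 0.233 and 0.427 FPKM in mNRPCs and 2.04 and 0.570 FPKM in the retina. Of the compared genes 27.1% had a lower log2 ratio than Ifitm1.

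Ifitm1 is a close neighbour of Ifitm2 and Ifitm3. The 3 genes and Ifitm5 and Ifitm6 lie within 67935 bp on chromosome 7 (140948958 to 141016892), with Ifitm1 (140967429 to 140969827, plus strand) between Ifitm2 (140954837 to 140959686, minus strand) and Ifitm3 (141009590 to 141010744, minus strand). In the mNRPC library Ifitm1 made up 0.0257% of the FPKM of the 3 members, and in the retina 9.38%. The share of Ifitm3 was 74.7% in mNRPCs and 73.3% in the retina, and that of Ifitm2 25.2% and 17.3%. Of 50-base stretches 1.80% in Ifitm1, 3.30% in Ifitm2 and 5.56% in Ifitm3 were shared with other genes of the table. Against all genes of GENCODE M21, whether or not in the table, the share was 6.36% in Ifitm1 and 48.5% in Ifitm2. Among the paralogs, Ifitm5, a gene of bone-forming cells, had 1.53 FPKM in mNRPCs against a listed value of 0 in the retina. Ifitm6 was at 0.458 FPKM and listed at 0, Ifitm7 was listed at 0 in both libraries, and Ifitm10 was listed at 0 in mNRPCs, against 0.257 FPKM in the retina.

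Usp18 encodes the protease that removes ISG15 and blocks signalling at IFNAR2. It was at 99.3 FPKM in mNRPCs and 0.549 FPKM in the retina, a fold of 181 (interval 78.3 to 544) and a log2 ratio of 6.02. The retina value rests on about 5.17 fragments. Usp18 lies at chr6:121245906-121270917 on the plus strand and overlaps the non-coding gene Gm44148.

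Rsad2 (chr12:26442743-26456452, minus strand) encodes viperin and was the lowest member of the retina library. It was at 68.9 FPKM in mNRPCs and 0.400 FPKM in the retina, a fold of 172 (interval 87.4 to 398) and a log2 ratio of 5.64. The fold intervals of Usp18 and Rsad2 overlapped each other and those of Ifitm2 and Ifitm3. Adding 1 FPKM weighs most on genes at low levels, so the log2 ratios of Usp18 and Rsad2 understate their folds.

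By level the members stood in a wide order in mNRPCs and a narrow one in the retina. In the mNRPC library the order was Ifitm3, Ifi27l2a, Isg15, Ifitm2, Ifit3, Ifit1, Usp18, Rsad2, Ifit2 and Ifitm1, and no counting interval overlapped that of the next gene. In the retina library the order was Ifitm3, Ifit3, Ifitm2, Ifi27l2a, Isg15, Ifitm1, Ifit2, Ifit1, Usp18 and Rsad2. There only Ifitm3 and Ifit3 were clear of the gene after them, and from Ifitm2 downward the interval of each gene overlapped that of the next. These statements on order cover counting error alone.

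**Figure D3:**
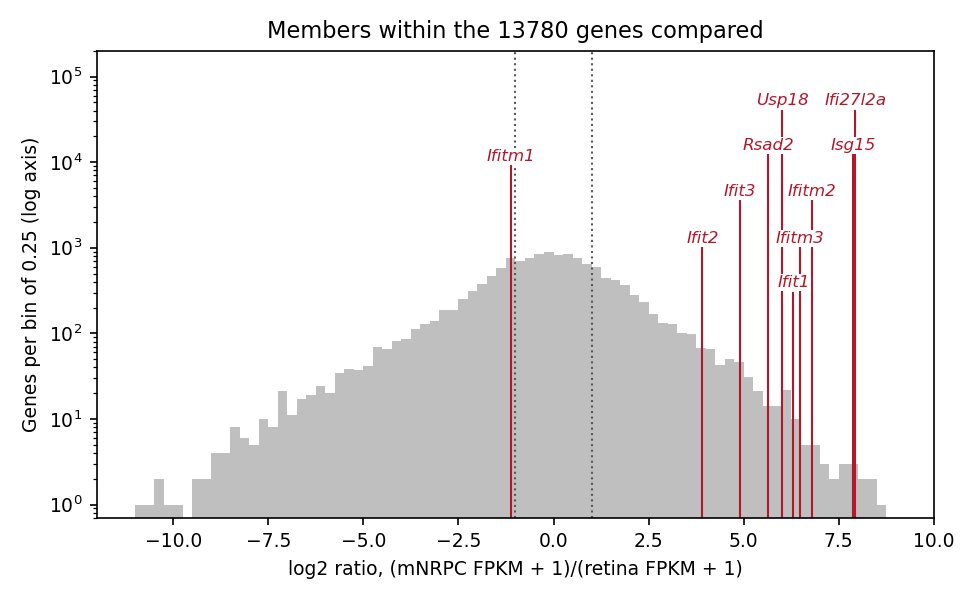
Log2 ratios of the 13780 compared genes (grey bars, number of genes per bin of 0.25 on a log axis) with the 10 members marked by red lines. Dotted lines mark log2 ratios of -1 and 1, and the height of a red line has no meaning. The members other than Ifitm1 lie between 3.92 and 7.93, above the 90th percentile of all genes at 2.14, and Ifitm1 lies at -1.12.

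The rest of the interferon pathway was described with 7 gene lists. Without the members they named 103 genes, of which 78 were compared. At least 2-fold higher in mNRPCs were 67 of these, 1 was at least 2-fold lower and 10 were within 2-fold, with a median log2 ratio of 3.45. Over all 13780 compared genes 24.5% were at least 2-fold higher and 30.0% at least 2-fold lower. These shares also stand beside the count of each list below. The lists were chosen with earlier results of these data known, so the counts are a description.

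Of 21 interferon ligands, 19 were listed at 0 in both libraries and all 21 in the retina. Ifnb1, the interferon beta gene, was at 0.627 FPKM in mNRPCs, on about 3.20 estimated fragments. Ifnz, an interferon zeta gene, was at 1.06 FPKM there, on about 10.6 estimated fragments, with a log2 ratio of 1.05. For the ligands listed at 0, 3 fragments would have given between 0.364 FPKM (Ifng) and 0.784 FPKM (Ifna4) in mNRPCs. Lower levels were not detectable at this depth.

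Of 8 compared genes for receptors and Janus kinases 5 were at least 2-fold higher in mNRPCs and 3 were within 2-fold. Ifnar2, the chain that carries STAT2, was at 24.6 FPKM in mNRPCs and 3.05 FPKM in the retina, a log2 ratio of 2.66. Ifnar1 was at 16.7 and 9.82 FPKM, a log2 ratio of 0.71, and Jak1 at 10.8 and 11.0 FPKM, a log2 ratio of -0.03. Ifngr2 had a log2 ratio of 1.67, Il10rb of 1.64, Tyk2 of 1.13 and Ifngr1 of 1.10.

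Of the transcription factors 6 of 8 compared genes were at least 2-fold higher. Irf7, the factor that amplifies interferon production and is itself induced by interferon, was at 381 FPKM in mNRPCs and 9.27 FPKM in the retina, a log2 ratio of 5.22. Irf1 was at 66.0 and 3.06 FPKM, a log2 ratio of 4.04. Of the parts of ISGF3, Stat2 had a log2 ratio of 3.50, at 56.6 FPKM in mNRPCs and 4.11 FPKM in the retina, and Irf9 one of 3.19. Irf3, which is present in resting cells, was at 35.2 and 30.8 FPKM with a log2 ratio of 0.19, and Irf2 had a log2 ratio of 0.66.

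Sensors of nucleic acid and their adaptors were at least 2-fold higher for 14 of 16 compared genes and at least 2-fold lower for 1. Dhx58, a helicase of the RIG-I family, was at 84.1 FPKM in mNRPCs and 0.311 FPKM in the retina, and Ddx58, which encodes RIG-I itself, at 47.0 and 1.70 FPKM. Zbp1, a sensor of Z-form nucleic acid, was at 78.8 FPKM in mNRPCs and 0.0695 FPKM in the retina, the latter less than 1 estimated fragment. Sting1, the adaptor of cytosolic DNA sensing, was at 79.3 and 0.326 FPKM. Ifi204 had 67.3 FPKM in mNRPCs against a listed value of 0 in the retina. The kinase gene Tbk1 was at 17.5 and 16.2 FPKM, a log2 ratio of 0.10. Aim2, the sensor of an inflammasome, had a listed value of 0 in mNRPCs against 1.28 FPKM in the retina, a log2 ratio of -1.19.

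The enzymes that attach and remove ISG15 are of direct interest beside the gene of the modifier. All 5 genes of this list, Usp18 among them, were compared and were at least 2-fold higher in mNRPCs. Uba7, the activating enzyme, was at 15.5 FPKM in mNRPCs and 0.752 FPKM in the retina, a log2 ratio of 3.24. Ube2l6, the conjugating enzyme, was at 162 and 4.11 FPKM. Herc6, the main ligase for ISG15 in the mouse, was at 22.4 and 0.965 FPKM, a log2 ratio of 3.57, and Trim25 at 31.6 and 8.03 FPKM, a log2 ratio of 1.85. The level of Isg15 was 6.00 times that of Ube2l6 in mNRPCs and 0.758 times in the retina. Relative to its protease gene Usp18, the level of Isg15 was 9.81 times as high in mNRPCs and 5.67 times in the retina.

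Of 33 other interferon-induced genes 32 were compared, and all 32 were at least 2-fold higher, with a median log2 ratio of 4.56. Bst2, which encodes the tether of budding virus, was at 1310 FPKM in mNRPCs and 8.14 FPKM in the retina, a log2 ratio of 7.16. B2m, the light chain of MHC class I, was at 4320 and 56.7 FPKM, a log2 ratio of 6.23. The chemokine gene Cxcl10 was at 105 and 0.199 FPKM, a log2 ratio of 6.47, with about 1.16 estimated fragments in the retina. Ifi44 and the GTPase gene Irgm1 had log2 ratios of 5.94 and 5.86, each with less than 1 estimated fragment in the retina. The lowest log2 ratios of this list were 2.09 for Tgtp1 and 2.84 for Oas3.

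Among 11 negative regulators 7 were at least 2-fold higher and 4 within 2-fold. Beside Usp18 the highest log2 ratios were 3.39 for Socs3, 2.12 for Socs1, 1.96 for Rnaseh2c and 1.86 for Samhd1. Pias1, an inhibitor of STAT signalling, was at 12.7 FPKM in mNRPCs and 24.2 FPKM in the retina, a log2 ratio of -0.88, and Ptpn2 had a log2 ratio of 0.38.

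**Figure D4:**
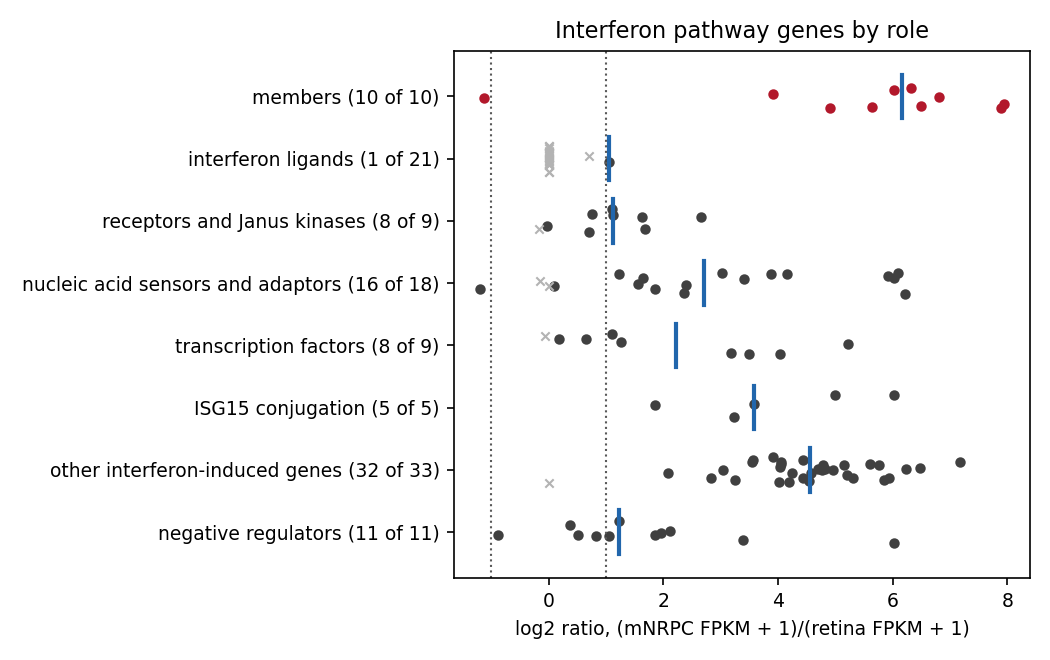
Log2 ratio, (mNRPC FPKM + 1)/(retina FPKM + 1), of the 10 members (red) and of the genes of 7 interferon pathway lists (dark points). Grey crosses are genes under 1 FPKM in both libraries, blue bars are medians over the compared genes, dotted lines mark -1 and 1, vertical scatter within a list has no meaning, and the labels give compared and listed genes. Usp18 and Trim25 are on 2 lists each. The medians of compared genes run from 1.05 for the single compared ligand to 4.56 for other interferon-induced genes, and the median of the members is 6.16.

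Matches to GAAANNGAAA were also counted in these lists. They were found in 12 of 26 other interferon-induced genes with a window, 11 of 20 ligands, 4 of 13 sensors, 2 of 8 transcription factors, 1 of 8 negative regulators, 0 of 8 receptor and kinase genes and 0 of 4 ISG15 conjugation genes. The share over all genes with a window was the 3.99% given above. Of genes at least 2-fold higher in mNRPCs 5.64% held a match, and of those at least 2-fold lower 3.36%.

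Markers of other cell types that the cultures or the tissue could hold were read beside these values. Of 12 markers of microglia and macrophages, 10 were listed at 0 in mNRPCs, among them Ptprc, Itgam, Cx3cr1, C1qa and C1qb. Their summed level was 1.23 FPKM in mNRPCs, nearly all of it Tmem119 at 1.22 FPKM, and 20.2 FPKM in the retina, where Tmem119 was at 0.880 FPKM. Of 6 lymphocyte markers 5 were listed at 0 in mNRPCs, with sums of 0.106 and 2.20 FPKM. The 4 markers of Mueller glia, the main glia of the retina, were all at least 2-fold lower in mNRPCs and summed to 35.7 FPKM there against 1763 FPKM in the retina. Glul was at 31.4 FPKM in mNRPCs against 897 FPKM, Apoe at 4.21 against 618 FPKM, Rlbp1 at 0.0986 against 202 FPKM and Slc1a3 at 0.0299 against 44.8 FPKM. The 6 endothelial markers summed to 0.132 FPKM in mNRPCs and 39.2 FPKM in the retina, with Cdh5, Cldn5 and Emcn listed at 0 in the former. Kdr, at 29.5 FPKM, made up most of the retina sum, and the others ran from 0.540 FPKM (Pecam1) to 6.04 FPKM (Cldn5) there. The 7 markers of fibroblasts and pericytes summed to 9.65 FPKM in mNRPCs and 14.7 FPKM in the retina, and they did not go one way. Of 5 compared, Pdgfrb was at least 2-fold higher, with 4.49 FPKM in mNRPCs against 1.24 FPKM in the retina, and Rgs5 was at least 2-fold lower, with a listed value of 0 against 8.16 FPKM. Pdgfra had 1.76 against 1.23 FPKM, Col1a1 1.35 against 0.552 FPKM and Dcn 1.96 against 2.58 FPKM, all within 2-fold on the log2(FPKM + 1) scale. The part of these cell types in the members' levels was not tested.

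By the distance between genes on the log2(FPKM + 1) scale over the 2 libraries, the pattern most like that of Isg15 among 8484 genes with at least 10 FPKM in 1 library was that of Ifi27l2a, at a distance of 0.10. Serpinh1, a chaperone of collagen, followed at 0.70 with 822 FPKM in mNRPCs and 5.46 FPKM in the retina. The third was Ifitm2 at 0.77. With only 2 libraries such a likeness rests on 2 values per gene.

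**Figure D5:**
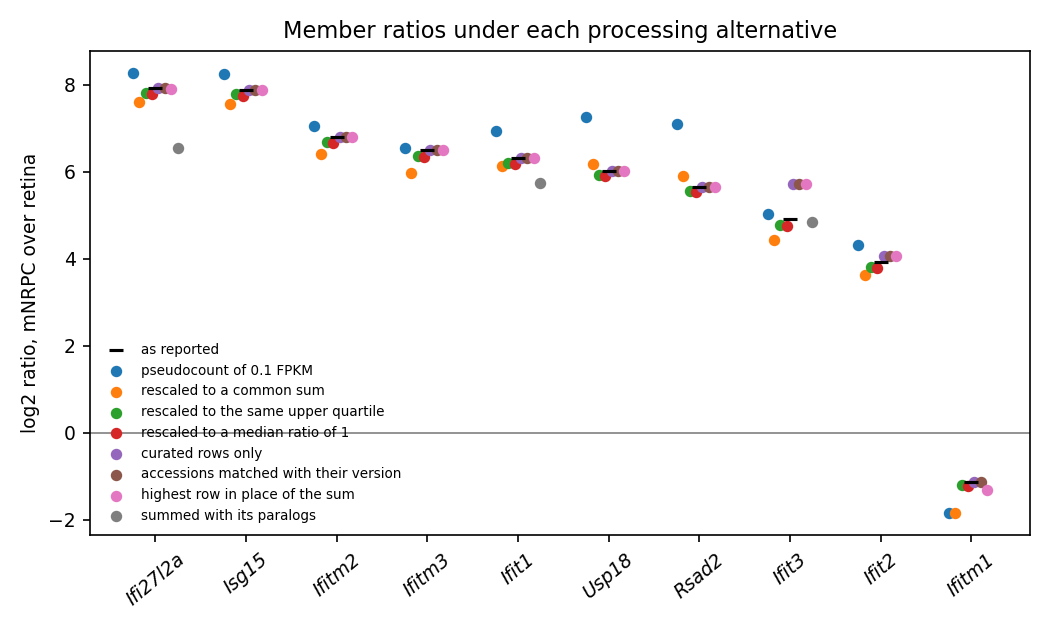
Log2 ratio of each member, mNRPC over retina, as reported (black bar) and under each processing alternative (coloured points). The vertical axis is the log2 ratio. The members other than Ifitm1 stay between 3.62 and 8.27, and Ifitm1 stays between -1.85 and -1.12.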

How the data were processed

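RNA-Seq was read from 1 mNRPC library and 1 retina library, grouped by their labels. The values deposited by the authors were FPKM for 106754 RefSeq transcript rows. According to the study's methods, reads were quality checked, mapped with Bowtie 2 and turned into FPKM with eXpress, whereas the submitters' processing notes name TopHat2 2.0.10 and GRCm38.p3, and the sources also name different sequencers. Use of strand is not stated. Reads of near-identical genes were divided by estimation, and a value listed at 0 can be a failed estimate.

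Accessions were matched without version to the RefSeq gene table (GRCm38.p6) and GENCODE M21, which gave a symbol for 74283 rows (69.6%), and rows were summed to 31253 genes. Values below 1e-06 FPKM were read as 0. Following the study, 1 was added before log2. A gene was compared if either library reached 1 FPKM, and a log2 ratio of at least 1 in size was counted. No count column was used here, so depth was estimated from how low values of transcripts of at least 1500 bp fall on whole fragments. It was 6.56e+06 and 5.16e+06 with 1000 bp, and 6.82e+06 and 5.14e+06 with 2500 bp. A level of 3 fragments was taken as the detection limit. With 1 library per group, no test was made. Scripts were tested on simulated data and run in Python 3.11.15 with pandas 2.3.3, numpy 2.4.6, SciPy 1.17.1 and matplotlib 3.10.9. All per-sample columns were used.

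The members, the pathway and marker lists and the alternatives were chosen with earlier results of these data known. Genes were named by rule: all members and the listed paralogs, up to 5 highest and 2 lowest log2 ratios of each pathway list, all ISG15 conjugation genes, the nearest protein-coding neighbours, and the 3 genes most like Isg15. Some genes enter the list counts but are not reported here by name. Alternatives were another pseudocount, filter, scaling, set of rows, way of joining rows or threshold. Promoter sequences are from RefSeq (GRCm38.p6). Ifi27l2a and Usp18 had no entry.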

Additional observations from a re-analysis of the deposited data

How the results depend on the processing

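No paired analysis was possible because there was only 1 library on each side, and for the same reason no library could be left out. The number of members at least 2-fold higher was 9 under each alternative tried. With a pseudocount of 0.1 FPKM the median log2 ratio of the members was 6.98 in place of 6.16. With a threshold of 2 on the log2 ratio the count of all genes higher in mNRPCs was 1547 in place of 3371, by construction, and that of the pathway genes was 52 in place of 67. No log2 ratio of a member changed sign. Of 73 values of single members under the alternatives, 61 stayed within counting error of the reported value and 12 did not. Among the latter, Ifit3 reached 5.71 with curated rows only, and Rsad2 7.11 and Usp18 7.26 with a pseudocount of 0.1 FPKM. Summing genes with their listed paralogs, an alternative chosen after seeing the data, gave 6.55 for Ifi27l2a, 5.75 for Ifit1 and 4.85 for Ifit3. Scaling both libraries to a common sum moved the median log2 ratio of all compared genes from -0.12 to -0.74 and the share of higher among called genes from 44.9% to 29.0%, and the 9 members remained higher. With the upper quartile or the median ratio as the scale this median was -0.24 or -0.28. Relative to the median of all genes, Isg15 was at 8.01 and Ifi27l2a at 8.05. Depth limits Ifitm1 most, with about 3.74 estimated fragments in mNRPCs and 10.7 in the retina, and then Usp18, Rsad2 and Ifi27l2a, each with fewer than 9 in the retina.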

Other observations

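The nearest protein-coding neighbours of the members were read as a description of the loci (RefSeq, GRCm38.p6). Beside Isg15 lie Agrn, the gene of the extracellular matrix protein agrin, at 50.8 FPKM in mNRPCs and 8.86 FPKM in the retina (log2 ratio 2.39), and Perm1, at 0.0591 and 0.148 FPKM. Beside the Ifi27 group lie Ddx24, at 45.9 and 35.0 FPKM, and Ppp4r4, at 0.306 and 1.58 FPKM. The IFIT cluster is flanked by Lipa, the lysosomal acid lipase gene, at 93.0 FPKM in mNRPCs and 6.57 FPKM in the retina (log2 ratio 3.63), and by Slc16a12, listed at 0 and at 0.265 FPKM.

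The IFITM cluster is flanked by Pgghg, at 13.7 FPKM in mNRPCs and 1.18 FPKM in the retina (log2 ratio 2.75), and by B4galnt4, at 0.342 and 7.63 FPKM (log2 ratio -2.68). The neighbours of Usp18, Tuba8 and Slc6a13, had log2 ratios of -2.24 and -2.12. Rsad2 lies between Rnf144a, with a log2 ratio of -2.34, and Cmpk2, 12665 bp away, which encodes a nucleotide kinase that supplies the substrate of viperin and is itself interferon-induced. Cmpk2 was at 39.4 FPKM in mNRPCs and 3.26 FPKM in the retina (log2 ratio 3.25). Of 12 neighbours, 4 were at least 2-fold higher in mNRPCs and 4 at least 2-fold lower. Of the other 4, Ddx24 and Ppp4r4 were within 2-fold, and Perm1 and Slc16a12 were under 1 FPKM in both libraries and were not compared. Over all 13780 compared genes 24.5% were at least 2-fold higher and 30.0% at least 2-fold lower. With so few neighbours, the counts are not read as a trait of these loci.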
